A study of Mus musculus with 8 samples.

Results

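The genes described here are the 10 that build the muscle acetylcholine receptor and gather it at the nerve contact: the receptor subunits *Chrna1*, *Chrnb1*, *Chrnd*, *Chrng* and *Chrne*, the organizers *Musk*, *Lrp4*, *Dok7* and *Rapsn*, and the esterase *Ache*. They were chosen by name, by their Entrez identifiers in the expression table and by their symbols in the peak lists. All 10 were among the 27179 genes of the table, 8 were among the 11406 with enough signal to be tested, and 8 were among the 9153 genes with an m6A peak in at least 1 list. The cells were C2C12, an immortalized line of mouse myoblasts, grown on collagen without nerve. Proliferating cells (GM) were collected at 50% confluence in medium with 10% fetal bovine serum. Differentiating cells (3d DM) were collected after 3 days in 2% horse serum, to which they were switched at more than 90% confluence. Each state had 2 libraries of input poly(A) RNA and 2 libraries of RNA precipitated with an antibody against N6-methyladenosine (m6A), a common mark on adenines of messenger RNA. Nothing in the labels says that the replicates came from separate cultures, so their spread may be technical.

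At the neuromuscular junction, acetylcholine released by the motor nerve opens a pentameric channel in the muscle membrane. Fetal and denervated muscle makes this channel from alpha1, beta1, delta and gamma subunits, and in adult muscle epsilon takes the place of gamma. Agrin from the nerve binds Lrp4, which activates the kinase MuSK with the help of the adaptor Dok7, and rapsyn then anchors the receptors in clusters, while acetylcholinesterase ends the signal.

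Markers of the state went with the labels. The 6 myotube markers examined (*Myh3*, *Mymk*, *Ckm*, *Myog*, *Ttn* and *Tnnt3*) were all called higher in 3d DM by limma, and 4 of 5 markers of dividing myoblasts were called lower. The summed values also set GM replicate 1 apart: the myotube markers came to 7543 in it against 1345 in GM replicate 2, and to 77949 and 101463 in 3d DM. The dividing markers came to 9449 and 10495 in GM and to 1141 and 2200 in 3d DM. Each library of the table sums to between 12534657 and 12536233, a total set by the authors' normalization, so the depth is unknown.

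Peaks in 1 list of a state alone went against the input values of the same replicate numbers. Among the 595 genes with an input value at least 2-fold higher in GM replicate 1 than in GM replicate 2 and a peak in either GM list, 10.6% had a peak in the replicate 1 list alone and 23.4% in the replicate 2 list alone. Among the 105 genes with the opposite difference the shares were 42.9% and 4.8%, and among the 7138 genes less than 2-fold apart they were 13.0% and 7.1%. In 3d DM, 355 genes had at least 2-fold more input in replicate 2, of which 35.2% had a peak in the replicate 1 list alone and 8.5% in the replicate 2 list alone, against 20.8% and 7.8% of the 7309 genes less than 2-fold apart. The cause was not tested. No peak of a GM list is set here against the input value of the same replicate number. Comparisons of input values between GM and 3d DM do not use that match. The peaks and their folds rest on the authors' matching of each precipitate to its input, which was not tested.

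The messages of the receptor subunits were present in both states except that of *Chrne*, and 4 of the 5 rose in 3d DM. Of the 8 receptor and synapse genes tested, 6 rose (*Chrna1*, *Chrnb1*, *Chrnd*, *Chrng*, *Musk* and *Lrp4*), none fell, and *Dok7* and *Rapsn* did not pass the test. Over all genes tested, 7.01% were called higher (800 genes) and 9.96% lower (1136 genes) in 3d DM, a split that median-of-ratios rescaling turned to 1366 higher and 1281 lower. The median log2 fold change of the 8 was 1.56, beside -0.22 for all tested genes. In 7 of the 8, both 3d DM values lay above both GM values, which was the case for 16.8% of all tested genes, while 37% had both 3d DM values below both GM values. All 8 passed the filter on low values in all 4 libraries. A fit without GM replicate 1 called 5 of the 8, and one without GM replicate 2 called *Chrng* and *Lrp4* alone. Without either 3d DM library limma called 0 of the 8, with an unadjusted p under 0.05 for 5 of them without replicate 1 and for 3 without replicate 2.

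**Figure D1:**
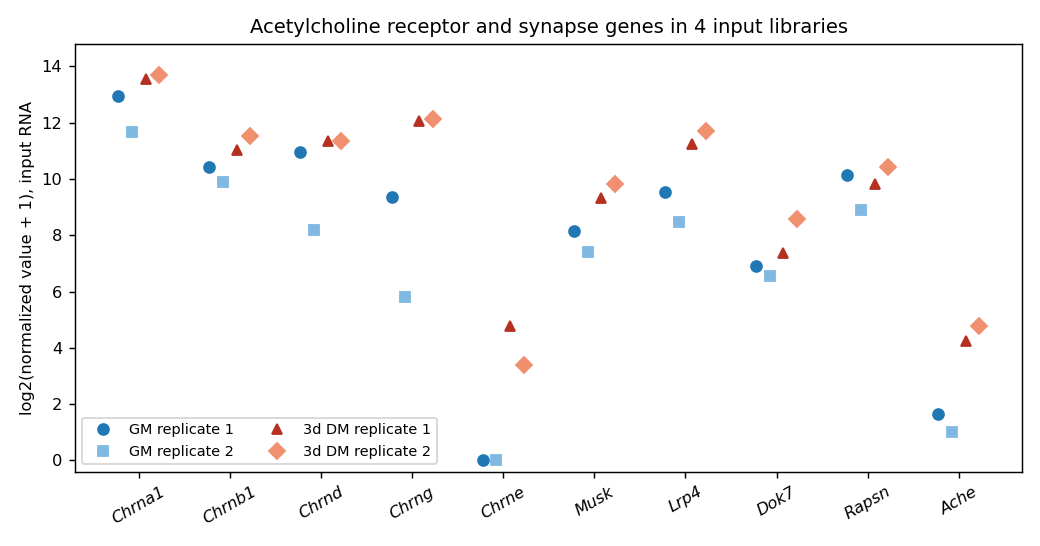
Normalized values of the 10 genes in the 4 input libraries, on a log2(value + 1) axis, with 1 point a library. The 3d DM points lie above both GM points for every gene except Rapsn, and GM replicate 1 lies above GM replicate 2 for every gene except Chrne, which is at 0 in both.

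*Chrna1* (chr2:73563281-73580338, minus strand) encodes alpha1, a subunit that takes part in the binding sites for acetylcholine. Its normalized value was 7824 and 3230 in GM against 12025 and 13424 in 3d DM. Both 3d DM libraries were higher than both GM libraries, and the GM libraries differed from each other by 2.42-fold. The log2 fold change was 1.34 ± 0.40 (SE of the fit, n = 2 a state, adjusted p = 0.00761 by limma with Benjamini-Hochberg adjustment). It was 1.98 without GM replicate 1 (adjusted p = 0.00348, limma) and 0.70 without GM replicate 2 (adjusted p = 0.639, limma).

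*Chrng* (chr1:87205811-87211835, plus strand) encodes gamma, the fetal subunit, and showed the largest rise of the 8. Its value was 658 and 55.2 in GM against 4252 and 4545 in 3d DM. The 3d DM libraries lay close together and far above GM, whose libraries differed by 11.9-fold. The log2 fold change was 4.51 ± 0.43 (SE, n = 2 a state, adjusted p = 1.26e-23 by limma). The fitted spread came from the trend over all genes, and the SD of *Chrng* about its own group means was 1.78 on the log2 scale. After median-of-ratios rescaling the adjusted p was 0.0223 (limma). The estimate changed with the GM library used: it was 6.29 without GM replicate 1 and 2.74 without GM replicate 2 (adjusted p = 0.000395, limma).

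*Chrnd* (chr1:87190597-87200070, plus strand) encodes delta and lies upstream of *Chrng* on the same strand. Its value was 1983 and 288 in GM against 2593 and 2628 in 3d DM. GM replicate 1 came near the 3d DM libraries and GM replicate 2 stood well below all of them. The log2 fold change was 1.79 ± 0.42 (SE, n = 2 a state, adjusted p = 0.000307 by limma). It was 0.40 without GM replicate 2, with an adjusted p of 0.924, and after median-of-ratios rescaling the adjusted p was 0.116. *Chrnb1* (chr11:69784036-69795966, minus strand), which encodes beta1, had values of 1391 and 946 in GM against 2102 and 2962 in 3d DM. The states did not overlap, but this call lay nearest to the threshold, at a log2 fold change of 1.12 ± 0.42 (SE, n = 2 a state, adjusted p = 0.045 by limma). It was lost under 8 of 11 other settings, among them the fits without GM replicate 1 (adjusted p = 0.203, limma) and without GM replicate 2 (adjusted p = 0.687, limma).

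*Chrne* (chr11:70614883-70619213, minus strand) encodes epsilon, the adult subunit. It was listed at 0 in both GM libraries and at 26.6 and 9.49 in 3d DM. Only 1 library exceeded the filter of 25.1, so *Chrne* was not tested and no fold is given. *4930544D05Rik* lies within it on the opposite strand, and whether the authors counted by strand is not given in the sources used here.

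Divided by the length of all RefSeq exons of a gene, the values can be compared only roughly between genes. The transcripts expressed were not determined. In 3d DM the order was *Chrna1* (2946 ± 229 per kb of RefSeq exon, SD, n = 2), *Chrng* (2085 ± 98.2), *Chrnb1* (1162 ± 279), *Chrnd* (880 ± 8.37) and *Chrne* (11.2 ± 7.50). No neighbours in that order overlapped between the 2 libraries. In GM, *Chrna1* was again highest, at 1811 and 748 per kb, and *Chrnb1* followed at 639 and 434. *Chrnd* (669 and 97.2 per kb) was above *Chrnb1* in GM replicate 1 and below it in GM replicate 2. *Chrng* (312 and 26.2 per kb) was below *Chrnd* in each GM library, although their ranges over the GM libraries overlapped.

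The place of gamma among the subunits thus differed between states. Its value per kb was 0.17 and 0.035 of that of *Chrna1* in GM against 0.72 and 0.69 in 3d DM. The ratio of *Chrnd* to *Chrna1* was 0.37 and 0.13 in GM against 0.31 and 0.29 in 3d DM, so the states overlapped. Epsilon per kb was 0.818% and 0.273% of gamma in 3d DM. The RefSeq exons of *Chrng* span 2110 bases and the GENCODE transcript that holds its peaks 2780. With transcript lengths from GENCODE, *Chrng* was at 1582 ± 74.5 per kb in 3d DM (SD, n = 2), still between *Chrna1* at 2901 and *Chrnb1* at 1175.

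**Figure D2:**
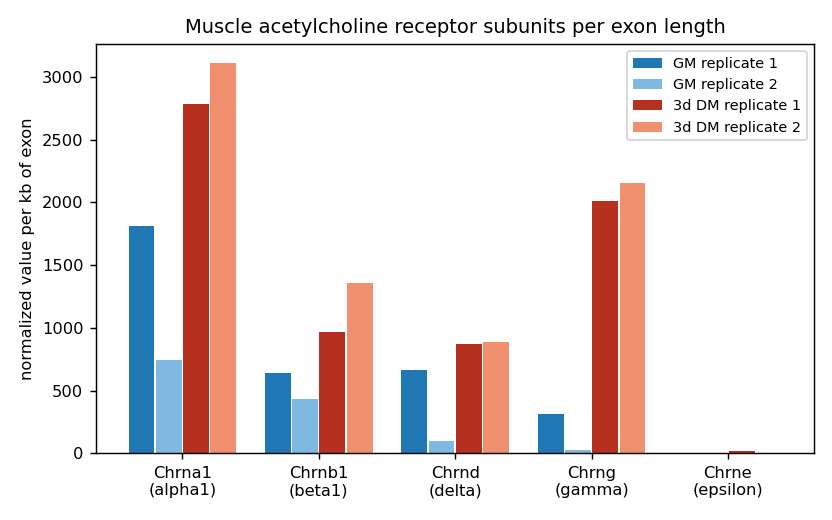
Normalized value per kb of RefSeq exon for the 5 receptor subunits, with 1 bar a library and no error bars, on a linear axis from 0. Gamma (Chrng) stands above beta1 and delta in both 3d DM libraries and below both in each GM library, and epsilon (Chrne) is near 0 throughout.

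The start regions of the alpha1, gamma and epsilon genes are shown because E-boxes and the N-box are known elements of receptor gene promoters. Each sequence is the 250 bases before the annotated start (RefSeq, GRCm38.p6), 5′ to 3′ in the direction of the gene, at chr2:73580339-73580588 for *Chrna1*, chr1:87205561-87205810 for *Chrng* and chr11:70619195-70619444 for *Chrne*. Capitals mark the E-box CANNTG, bound by myogenic factors such as MyoD and myogenin, and the N-box CCGGAA, bound by ETS factors, searched on both strands.
Chrna1: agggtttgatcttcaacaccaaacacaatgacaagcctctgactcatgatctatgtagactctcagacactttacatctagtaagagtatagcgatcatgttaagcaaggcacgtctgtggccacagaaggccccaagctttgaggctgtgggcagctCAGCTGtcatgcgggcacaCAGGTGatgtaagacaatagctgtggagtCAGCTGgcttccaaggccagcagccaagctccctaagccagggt
Chrng: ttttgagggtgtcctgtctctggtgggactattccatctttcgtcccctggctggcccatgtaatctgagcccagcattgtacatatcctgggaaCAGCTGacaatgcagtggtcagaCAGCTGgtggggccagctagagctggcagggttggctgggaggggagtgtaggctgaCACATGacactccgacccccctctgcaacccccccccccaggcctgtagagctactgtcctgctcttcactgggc
Chrne: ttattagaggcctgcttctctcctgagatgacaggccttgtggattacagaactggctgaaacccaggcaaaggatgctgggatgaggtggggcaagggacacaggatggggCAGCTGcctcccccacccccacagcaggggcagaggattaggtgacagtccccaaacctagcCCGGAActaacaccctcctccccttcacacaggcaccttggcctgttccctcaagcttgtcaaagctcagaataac
Both *Chrna1* and *Chrng* held 3 E-boxes, of which 2 were CAGCTG, at 92 and 44 bases before the start in *Chrna1* and at 155 and 132 in *Chrng*. *Chrne* held 1 CAGCTG, 138 bases before the start, and 1 N-box, 76 bases before it. Such matches are common: of 32851 promoters, 66.2% held CANNTG in the same window, 13.0% held CAGCTG and 3952 held CCGGAA.

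Of the clustering genes, the kinase and its agrin receptor rose. *Musk* (chr4:58285729-58377848, plus strand) had values of 286 and 167 in GM against 646 and 898 in 3d DM, without overlap. Its log2 fold change was 1.80 ± 0.45 (SE, n = 2 a state, adjusted p = 0.000763 by limma), and without GM replicate 2 it was 1.41 (adjusted p = 0.316, limma). *Lrp4* (chr2:91457456-91513901, plus strand), which encodes the agrin receptor, had values of 740 and 350 in GM against 2441 and 3320 in 3d DM. Here too the states were apart, with a log2 fold change of 2.48 ± 0.42 (SE, n = 2 a state, adjusted p = 1.44e-07 by limma). The adjusted p was 0.00374 after median-of-ratios rescaling (limma). Without GM replicate 1 the log2 fold change of *Lrp4* was 3.02, and without GM replicate 2 it was 1.94.

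*Dok7* (chr5:35056571-35087839, plus strand), the cytoplasmic activator of MuSK, had values of 120 and 92.3 in GM against 164 and 378 in 3d DM. Both 3d DM values were higher, but they differed from each other by more than the lower of them did from GM. The log2 fold change was 1.23 ± 0.48 (SE, n = 2 a state, adjusted p = 0.0602 by limma), with a 95% interval of the fit from 0.28 to 2.18. It passed the threshold after median-of-ratios rescaling (adjusted p = 0.0202) and without the intensity trend (adjusted p = 0.049).

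*Rapsn* (chr2:91035472-91045729, plus strand), the receptor anchor, was the 1 tested gene of the 8 whose states overlapped. Its value was 1125 and 480 in GM against 903 and 1384 in 3d DM. The log2 fold change was 0.61 ± 0.43 (SE, n = 2 a state, adjusted p = 0.406 by limma), and its 95% interval ran from -0.24 to 1.45. Without GM replicate 2 the estimate was -0.01. *Gm13778* overlaps *Rapsn* on the opposite strand.

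Per kb of exon, the organizers stood below the alpha1, beta1, gamma and delta subunits in 3d DM and above epsilon. There *Rapsn* stood at 644 ± 192 per kb (SD, n = 2), *Lrp4* at 303 ± 65.2, *Musk* at 103 ± 23.9 and *Dok7* at 59.4 ± 33.2. *Musk* and *Dok7*, neighbours in this order, lay at 86.5 to 120 and at 35.9 to 82.9 per kb, so they came close without overlapping. These levels depend on the length used. The joined RefSeq exons span 7467 bases for *Musk* and 4565 for *Dok7*. The GENCODE transcripts used for their peaks span 3422 and 2498 bases, and with these both would stand higher.

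**Figure D3:**
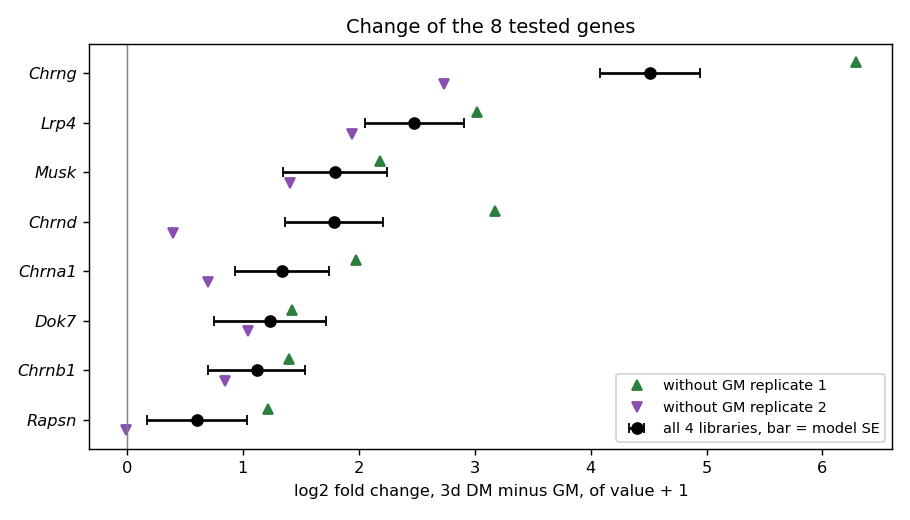
Log2 fold change (3d DM minus GM, of value + 1) of the 8 tested genes, with black points and bars for the estimate and its SE from all 4 input libraries and triangles for the fits that leave out either GM library. Chrng, Lrp4 and Musk keep the largest estimates without GM replicate 2, at 2.74, 1.94 and 1.41, while Rapsn falls to -0.01.

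*Ache* (chr5:137288247-137294466, plus strand) was near the floor of the table. Its value was 2.11 and 1.01 in GM against 18.1 and 26.7 in 3d DM, so both 3d DM libraries were higher, but 1 library alone exceeded the filter and *Ache* was not tested. *Gm42456* overlaps its start on the opposite strand. *Colq*, which encodes the collagen tail that anchors the esterase at the synapse, was at 3.14 and 3.01 in GM against 96.6 and 88.3 in 3d DM. It was called higher, but it passed the filter through the 3d DM libraries alone, so that the call is no more than a description of these values. It was the 1 gene of 6 tested on the list of esterase anchors and cholinergic enzymes. *Chat*, *Slc18a3* and *Prima1* were listed at 0 in all 4 libraries.

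The difference between the GM libraries touched most of these genes. GM replicate 1 was at least 2-fold above GM replicate 2 for 5 of the 8 tested (*Chrna1*, *Chrnd*, *Chrng*, *Rapsn* and *Lrp4*), against 10.4% of all tested genes. The median log2 ratio of the 8 was 1.15, that of the 6 myotube markers 2.51, that of the 5 markers of dividing myoblasts -0.03 and that of all tested genes 0.21. The part of myotube-like cells in GM replicate 1 in these values was not tested. In bulk RNA, fewer cells of a type and less RNA per cell cannot be told apart.

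**Figure D4:**
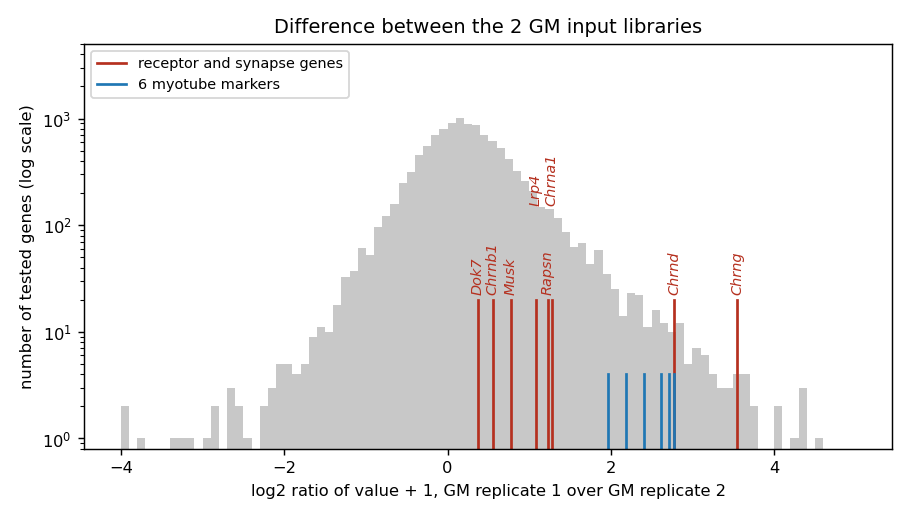
Number of tested genes (log axis, grey bars) by the log2 ratio of GM replicate 1 over GM replicate 2, of value + 1. All 8 receptor and synapse genes (red) lie above 0, from 0.37 for Dok7 to 3.55 for Chrng, and the 6 myotube markers (blue) reach 2.77.

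Markers of cells that meet muscle at the synapse were mostly absent. The neuronal markers *Rbfox3*, *Chat* and *Slc18a3* were at 0 in all 4 libraries and *Snap25* did not exceed 0.75. The sixth, *Syp*, did not exceed 4.95, and *Tubb3*, a neuronal tubulin, fell from 1334 and 1785 in GM to 486 and 778 in 3d DM (adjusted p = 0.015, limma). Of the Schwann cell markers, *Sox10* did not exceed 2.32 and *S100b* did not exceed 4.37, *Erbb3* rose, and *Ngfr*, which passed the filter through the GM libraries alone, was at 36.5 and 87.3 in GM against 0.076 and 1.54 in 3d DM. The 2 endothelial markers did not exceed 1.00, and of 3 leukocyte markers *Ptprc* and *Adgre1* did not exceed 2.21 and *Cd68* did not exceed 26.4.

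Genes of the wider synapse machinery moved in both directions. On 7 lists of related genes, 56 of 84 genes were tested, of which 11 were called higher and 7 lower in 3d DM. Over all tested genes 7.01% were called higher and 9.96% lower. The median log2 fold change of the 56 was -0.07, beside -0.22 for all tested genes. Among 25 partners of agrin and MuSK signalling and of the postsynaptic scaffold, all tested, 5 rose and 2 fell. *Cav3*, the muscle caveolin, was at 4.19 and 4.01 in GM against 548 and 756 in 3d DM, and it is 1 of the 5 although it passed the filter through the 3d DM libraries alone. *Fyn*, a kinase of the Src family, rose by 1.51 ± 0.42 on the log2 scale. *Agrn*, which encodes agrin, was at 227 and 262 in GM against 225 and 418 in 3d DM (adjusted p = 0.739, limma).

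Neuregulin receptors and ETS factors moved in both directions, with 2 of 9 tested genes higher and 2 lower. *Erbb3* rose from 216 and 67.3 to 1141 and 1930 (log2 fold change 3.61 ± 0.45, SE, n = 2 a state, adjusted p = 6.28e-14 by limma). Median-of-ratios rescaling gave *Erbb3* an adjusted p of 0.00497 (limma). *Erbb2*, its partner kinase, rose by 1.43 ± 0.44 on the log2 scale. *Etv4*, an ETS factor, had values of 484 and 750 in GM against 110 and 150 in 3d DM, a log2 fold change of -2.22 ± 0.46. *Erbb4* was at 0 in all 4 libraries.

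Of the regulators of receptor transcription, 6 of 8 were tested, 1 rose and 1 fell. *Myog*, which encodes myogenin, went from 1008 and 221 in GM to 5392 and 11502 in 3d DM (log2 fold change 4.06 ± 0.42, SE, n = 2 a state, adjusted p = 2.6e-20 by limma). Its adjusted p was 0.00765 after median-of-ratios rescaling (limma). *Myf5* fell, with a log2 fold change of -2.14 ± 0.48. *Myod1* was at 1713 and 1129 in GM against 1016 and 1645 in 3d DM.

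Of 7 tested basal lamina genes, 2 rose and 1 fell. *Nid1*, which encodes nidogen 1, fell from 7392 and 6375 to 946 and 1140 (log2 fold change -2.72 ± 0.41, SE, n = 2 a state, adjusted p = 1.67e-09 by limma). With median-of-ratios rescaling the adjusted p of *Nid1* was 0.00148 (limma). *Nid2* rose by 1.54 ± 0.43 on the log2 scale. *Col13a1*, a membrane collagen of the junction, was listed at 0 in both GM libraries and at 55.6 and 49.1 in 3d DM, and it is 1 of the 2 although it passed the filter through the 3d DM libraries alone. Of 8 tested genes for receptor assembly, *Ly6e* fell (log2 fold change -1.44 ± 0.42), and limma called 0 higher, with 0 at an unadjusted p under 0.05. The 16 neuronal nicotinic and muscarinic subunits did not exceed 8.86 in any library and none was tested.

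*Coq10a*, *Polr3gl* and *1700113A16Rik* had the profiles most like that of *Chrna1* over the 4 input libraries. After centring each gene's log2 values on its mean, *Coq10a* differed from *Chrna1* by 0.05 (root mean square, log2 scale), *Polr3gl* by 0.05 and *1700113A16Rik* by 0.06. *Coq10a* was at 224 and 100.4 in GM against 347 and 400.1 in 3d DM. Of the 3, *Coq10a* was called higher (adjusted p = 0.0342, limma), and *Polr3gl* (0.0618) and *1700113A16Rik* (0.0518) were not.

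Peaks of m6A were listed on 8 of the 10 genes and on neither *Chrne* nor *Ache*. The authors called peaks for each sample against its own input, so each list counts as 1 replicate. The GM lists held peaks on 5 and 7 of the genes and each 3d DM list on 7. Peak lines with at least 1 exonic base in common on a strand were merged, which left 7 and 12 distinct peaks in GM against 17 and 15 in 3d DM. Most of the tested genes were higher in 3d DM input, so fewer peaks and weaker coverage in GM cannot be told apart. The exact two-sided permutation test gave p = 0.333 for the peaks and p = 1 for the genes, and 2 lists against 2 cannot give less than 0.33. With p up to 1e-05 as the threshold, the genes with a peak were 1 and 6 in GM against 7 in each 3d DM list. With folds of at least 4, the distinct peaks were 3 in each GM list against 4 and 5 in 3d DM. All 4 lists held *Chrnd*, *Musk*, *Dok7* and *Lrp4*, or 4 of the 8 tested genes, against 42.6% of the 11253 tested genes with a symbol, and 76.2% of those had a peak in at least 1 list. Over the lists the peaks fell into 20 sites, of which 4 were in all lists and 6 in 1 list.

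**Figure D5:**
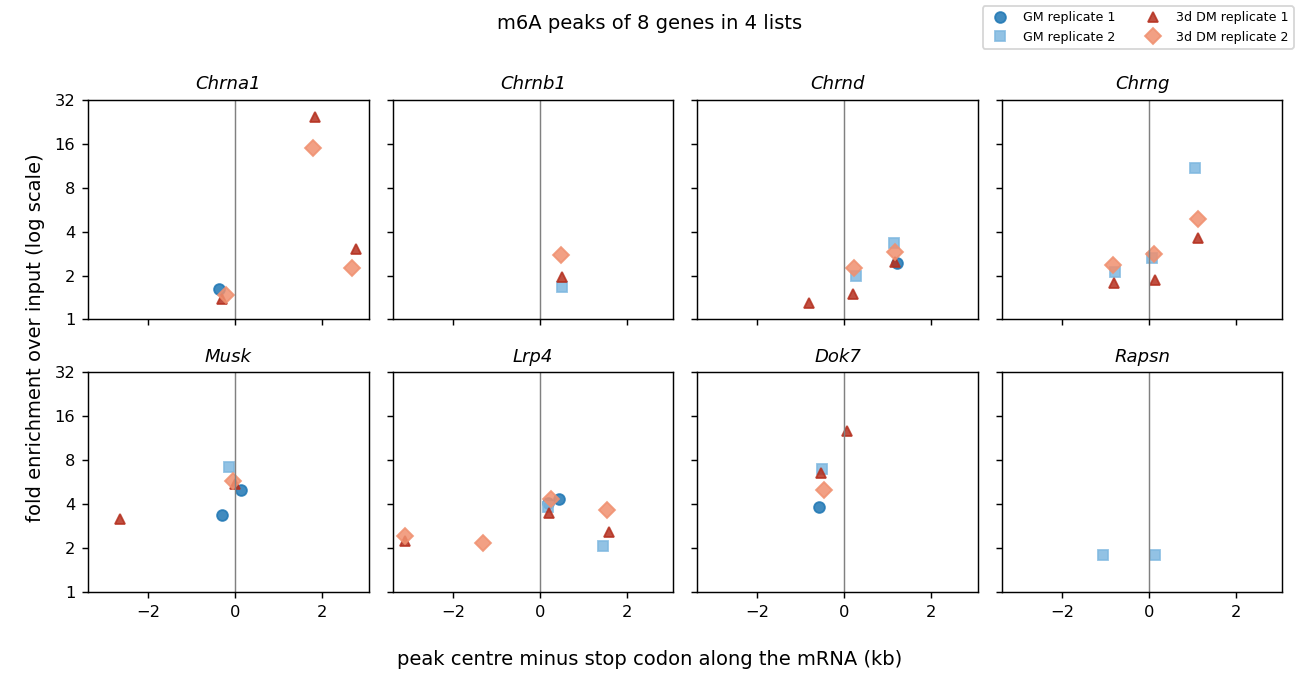
Fold enrichment over input (log axis) of each distinct peak against the distance of its centre from the stop codon along the mRNA (kb), 1 panel a gene and 1 symbol a list. Musk, Lrp4, Dok7 and Chrnd carry a peak in all 4 lists at one place, and the highest folds, 24.3 and 15.0, belong to Chrna1 in 3d DM.

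The 4 sites present in all lists did not separate the states. The peak of *Musk* lay over its stop codon, with fold enrichments over input of 4.96 and 7.24 in GM against 5.53 and 5.80 in 3d DM (exact permutation p = 1, two-sided, n = 2 a state). That of *Dok7* lay about 0.5 kb before the stop codon in the GENCODE transcript used, with folds of 3.85 and 6.94 in GM against 6.50 and 5.01 in 3d DM (exact permutation p = 1). The *Musk* site in GM replicate 1 was split into peaks of 3.37-fold before and 4.96-fold over the stop codon. In *Lrp4* the site after the stop codon had strongest folds of 4.37 and 3.81 in GM against 3.47 and 4.35 in 3d DM (exact permutation p = 0.667). That site too was split in GM replicate 1, into a peak of 4.05-fold and one of 4.37-fold. Their centres lay 179 and 448 bases after the stop codon. In *Chrnd* the peak at the end of the 3′ untranslated region had 2.42 and 3.34 against 2.47 and 2.90 (exact permutation p = 1). In each of the 4 the GM and 3d DM folds overlapped.

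Stretches common to all 4 lists are shown for these genes, since every library placed enrichment there. m6A is laid down in the motif DRACH, that is AC after an A or G, with A, G or T before these and A, C or T behind. Capitals mark it on the strand of the mRNA (GRCm38). The *Musk* stretch is 120 of the 388 bases common to the lists and lies before the stop codon, within the 3.37-fold peak of GM replicate 1, while the common bases under the 4.96-fold peak are not printed. The *Dok7* and *Musk* stretches are coding, at chr5:35079398-35079606 and chr4:58373347-58373466. Of the untranslated *Lrp4* and *Chrnd* sites 29 bases about the most central motif are given, at chr2:91511926-91511954 and chr1:87199960-87199988. The *Lrp4* bases lie within the 4.05-fold peak of GM replicate 1.
Dok7: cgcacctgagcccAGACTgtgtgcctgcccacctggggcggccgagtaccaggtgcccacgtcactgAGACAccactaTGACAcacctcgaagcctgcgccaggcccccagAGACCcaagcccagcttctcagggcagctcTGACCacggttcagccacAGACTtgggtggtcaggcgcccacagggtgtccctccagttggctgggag
Musk: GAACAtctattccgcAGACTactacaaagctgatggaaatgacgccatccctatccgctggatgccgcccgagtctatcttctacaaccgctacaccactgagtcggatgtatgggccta
Lrp4: aAAACTacctggGGACAagaagtgagggc
Chrnd: acacaggcaggtAGACTagaaagggggtc
The *Dok7* stretch holds 6 motifs in 209 bases and the *Musk* stretch 2 in 120. The motif is frequent: in the central 100 bases of each gene's strongest peak, 90.5% of 24956 peaks held it, and 20 of 23 peaks of the genes described here. Within these central bases, the variant GGACT was in 14.7% of those peaks and in 0 of the 23. The 23 come from 8 genes counted once for each list. Over all exonic bases of the sites present in all lists, GGACT was not absent. There it occurred 2 times in *Musk*, 2 in *Lrp4*, 1 in *Dok7* and 0 in *Chrnd*.

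*Chrna1* had 2 untranslated sites in the 3d DM lists alone. A site in the 3′ untranslated region, about 1.8 kb after the stop codon, had folds of 24.3 and 15.0 in 3d DM (p = 7.41e-07 and p = 0.000174 as given by the authors' peak caller) and was in neither GM list. A second site, about 2.7 kb after the stop codon, had folds of 3.04 and 2.24 in 3d DM and was also in neither GM list. The coding site before the stop codon had folds of 1.61 in the first GM list and of 1.39 and 1.46 in the 3d DM lists, and was not called in the second GM list. Among the strongest peaks of all genes, the 24.3-fold and 15.0-fold values stood at the 98.4th and 92.8th percentile of their lists. This ranks folds only. The coding site had smaller p-values in the same lists, p = 7.94e-25 and p = 6.31e-18 by the authors' peak caller. *Gm30940* runs through both untranslated sites on the opposite strand. Since *Chrna1* was itself higher in 3d DM input, a peak missing in GM and a peak too weakly covered to be called cannot be told apart.

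The sites of *Chrna1* are shown because 1 is shared between the states and the other was called in 3d DM alone. The coding stretch common to the 3 lists is at chr2:73566741-73566920, and 29 bases of the stronger untranslated site at chr2:73564352-73564380, both on the minus strand with the motif in capitals.
Chrna1 coding: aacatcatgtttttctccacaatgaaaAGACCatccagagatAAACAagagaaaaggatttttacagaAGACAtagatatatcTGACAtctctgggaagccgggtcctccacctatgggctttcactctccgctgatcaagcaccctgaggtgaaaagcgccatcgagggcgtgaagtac
Chrna1 untranslated: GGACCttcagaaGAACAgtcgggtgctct

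*Chrng* had the same 3 sites in GM replicate 2 and both 3d DM lists and none in GM replicate 1. At the coding site, about 0.8 kb before the stop codon, the folds were 2.13 in GM against 1.77 and 2.36 in 3d DM. At the site just after the stop codon they were 2.64 in GM against 1.87 and 2.82 in 3d DM. At the third, about 1.1 kb after the stop codon, they were 11.0 in GM against 3.62 and 4.91 in 3d DM. The value of 11.0 came from a peak of 60 bases, and this site lies beyond the RefSeq end of the gene and within the GENCODE transcript. The coding stretch of *Chrng* common to the 3 lists, at chr1:87209054-87209215, holds 1 motif, of the form GGACT.
Chrng: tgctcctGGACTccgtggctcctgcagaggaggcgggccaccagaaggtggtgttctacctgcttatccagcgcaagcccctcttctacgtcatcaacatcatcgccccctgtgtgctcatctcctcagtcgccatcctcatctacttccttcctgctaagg

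*Chrnb1* had 1 site, at the end of its 3′ untranslated region, with folds of 1.68 in GM replicate 2 and 1.95 and 2.77 in 3d DM. It was not in the list of GM replicate 1. *Chrnd* had besides its shared site a peak about 0.2 kb after the stop codon, with folds of 1.98 in GM replicate 2 and 1.49 and 2.27 in 3d DM. A short coding peak of 1.30-fold was in 3d DM replicate 1 alone.

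*Lrp4* had 4 sites, the most of the 10 genes. A coding site about 3.1 kb before the stop codon was in both 3d DM lists, with folds of 2.24 and 2.41, and in neither GM list. As *Lrp4* was higher in 3d DM input, a missing peak and one too weakly covered cannot be told apart. Another about 1.3 kb before it was in 3d DM replicate 2 alone, with a fold of 2.15. The site about 1.5 kb after the stop codon had folds of 2.08 in GM replicate 2 and 2.57 and 3.66 in 3d DM. *Musk* had a peak over its start codon in 3d DM replicate 1 alone, with a fold of 3.17, and *Dok7* a 61-base peak after its stop codon in the same list, with a fold of 12.7. *Rapsn* stood apart from the rest, with 2 sites in GM replicate 2 alone, of 1.78-fold in the coding sequence and 1.80-fold after the stop codon.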

How the data were processed

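Input RNA and m6A immunoprecipitates of C2C12 cells in GM and 3d DM were used, with 2 libraries of each kind per state, grouped by the labels. The authors aligned reads to mm10 with HISAT2 (2.1.0) and deposited a table of normalized signal per gene, made with edgeR and labelled TMM (trimmed mean of M values). Of its values from 0.5 to 20, 99.4% lay within 0.03 of a whole multiple of one step in GM replicate 2 and 15.5% to 48.3% in the other libraries, so reads could not be recovered for all. Values under 1e-10 were read as 0. Peaks had been called by the authors sample by sample with exomePeak, each against the matching input, and the deposited lists give a p-value and the fold, the ratio of precipitated over input RNA. The depth is unknown, so no counting error is given.

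Log2(value + 1) was tested with limma (3.58.1, R 4.3.3) with an intensity trend, and p-values were adjusted by Benjamini and Hochberg (threshold 0.05), over genes that reached 25.1, which is 2 cpm of a column's sum, in 2 or more libraries. In that fit the spread followed the trend and not a gene's own replicates. The study's filter of 3 libraries was an alternative, beside others on the filter, pseudocount, trend, scaling, replicate block, peak threshold and left-out libraries. The strongest folds without each list were an alternative chosen after seeing the data. The limma step was run on data simulated with the fitted spread. That run cannot tell how the fit treats genes with a wider spread of their own. Entrez identifiers gave symbols for 98.7% of the tested genes. Peak starts, counted from 0 in the files, were written from 1. Positions used the GENCODE M21 transcript holding most of a gene's peak centres. Promoters came from RefSeq (GRCm38.p6), which gave them for *Chrna1*, *Chrnb1*, *Chrng*, *Chrne*, *Musk*, *Dok7* and *Ache*. The genes, the 7 related lists and the tests were chosen with earlier results of these data known. From each list up to 3 called genes of largest change are named, except a few genes that are not reported here, and others are named where a sentence needs them, chosen after their values were seen. Python 3.11.15, numpy 2.4.6, pandas 2.3.3, scipy 1.17.1, pysam 0.24.0 and matplotlib 3.10.9 were used.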

Additional observations from a re-analysis of the deposited data

How the results depend on the processing

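All 8 tested genes had a higher estimate in 3d DM under 10 of 11 other settings, and in the fit without GM replicate 2 *Rapsn* alone was at -0.01 (-0.009), beside 1.22 without GM replicate 1. *Chrng* and *Lrp4* were called under 8 of 11, *Musk* under 7, *Chrna1* and *Chrnd* under 6, *Chrnb1* under 3, *Dok7* under 2 and *Rapsn* under 0. Without a filter on low values limma called 0 of the 10 genes (5 at an unadjusted p under 0.05), 1 related gene and 154 of 27179 genes. Leaving out 1 input library left 0 to 5 of the 8 called, 2 to 11 related genes against 18, and 145 to 1252 genes in all against 1936, where the lone library of a state is assumed to vary like the others. With the replicate block 4 of the 8 (*Chrnd*, *Chrng*, *Musk* and *Lrp4*), 9 related genes and 1298 genes were called. No label says that libraries of the same number were paired. Deviations of same-numbered inputs correlated at 0.29 over 11406 genes, and whether they were paired is not known. Median-of-ratios rescaling moved the median log2 fold change from -0.22 to 0.00 and the split of calls from 800 higher and 1136 lower to 1366 and 1281. It called 6 of the 8, with *Dok7* and without *Chrnd*. The study's filter of 3 libraries called 5 of the 8. The cause of these differences was not tested. For peaks, 3d DM minus GM was 1 gene with a peak (0 to 2 without 1 list) and 6.5 distinct peaks (4 to 9 without 1 list). At p up to 1e-05 the difference in genes was 3.5, and with folds of at least 4 that in peaks was 1.5. The difference in strongest fold was -0.20 for *Chrnd* (-0.66 to 0.27 without 1 list, and 0.27 and 0.02 without GM replicate 2 and 3d DM replicate 1), -0.44 for *Musk* (-1.58 to 0.71, with 0.71 without GM replicate 2), 3.46 for *Dok7* (-0.39 to 7.31, with -0.39 without 3d DM replicate 1) and -0.18 for *Lrp4* (-0.62 to 0.26, with 0.10 and 0.26 without replicate 1 of GM and of 3d DM, and -0.78 for median folds). The 12.7-fold peak of *Dok7* in 3d DM replicate 1 lay at a site of that list alone. At the *Dok7* site present in all lists the difference was 0.36. Depth limits these values to an unknown degree.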
